A study of Mus musculus with 10 samples.

Results

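The genes described here encode the proteins of the cytosolic ribosome, measured in mouse keratinocytes with and without the small GTPase RhoA. They were chosen by symbol: every probe set of the array whose platform annotation gives exactly 1 symbol of the form Rpl or Rps followed by a number, or Rplp0, Rplp1, Rplp2 or Rpsa, without the S6 kinases (Rps6k). This gave 105 probe sets for 49 genes, of 45037 probe sets and 18193 named genes in all. Of the 49 genes, 26 belong to the large (60S) subunit or are paralogs of its members, and 23 to the small (40S) subunit or are paralogs of its members. A further 28 ribosomal protein symbols, among them Rpl3, Rpl5, Rpl10 and Rplp1, were found only on probe sets that carry several symbols and are not members. No measured value enters this rule, but the members were chosen with earlier results of these data known.

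Total RNA was measured on 10 Affymetrix Mouse Genome 430 2.0 arrays. The design asks whether transcript levels differ between RhoA-null and control keratinocytes, in cells taken straight from the epidermis and in primary culture. The freshly isolated cells gave 2 control and 2 KO arrays, and primary culture gave 3 of each. KO cells had the genotype RhoA fl/fl K5 cre, and the controls, titled Wildtype, had RhoA fl/+ K5 cre, so that both carried the Cre recombinase and at least 1 floxed allele. The keratin 5 promoter that drives this Cre is active in basal keratinocytes, whose descendants inherit the recombined allele, while skin cells of other lineages are not its target. The labels name no age, sex or strain. The titles speak of biological replicates without naming animals, so every p-value measures the spread between these samples.

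The eukaryotic ribosome joins a small subunit, which reads the messenger RNA, to a large subunit, which forms the peptide bond. Each ribosomal protein is needed in about equal number, and their messenger RNAs are among the most abundant of a growing cell. Most of these messenger RNAs begin with a C and an unbroken run of pyrimidines, the 5′ terminal oligopyrimidine (TOP) tract, through which mTORC1 and LARP1 control their translation, mostly without a change in their amount. In the epidermis, dividing basal keratinocytes make ribosomes, and cells brought into culture are pushed to divide. Several ribosomal proteins also have a role outside the ribosome, such as Rpl11, which with Rpl5 and 5S RNA can bind Mdm2 and so hold back the breakdown of p53.

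The TOP tract is the feature these genes are best known to share, so the sequence around it is shown for the members that the values below turn on. RefSeq promoters (assembly GRCm38.p6, 250 bases before to 50 after each annotated start, 300 in all) were found for 43 of the 49 genes, with 51 promoters between them. The tract was searched on the transcript strand from 20 bases before to 30 after the start, as a C followed by at least 5 bases that are each C or T. It was present in 33 of 51 member promoters (64.7%), from 31 genes, and in 34.3% of all 32851 mouse promoters. A match may lie wholly before the annotated start or inside the transcript. These counts are therefore of pyrimidine runs near the start, and do not show that a messenger RNA begins with one. Each line below gives the 30 bases from 15 before the annotated start to the 15th base from it, 5′ to 3′ on the transcript strand, with the longest tract in capitals.
Rps6, chr4:86857353-86857382, minus strand: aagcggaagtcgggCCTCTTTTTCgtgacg
Rps27, chr3:90213634-90213663, minus strand: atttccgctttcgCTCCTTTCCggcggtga
Rps10, chr17:27635230-27635259, minus strand: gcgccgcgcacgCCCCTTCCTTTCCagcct
Rpl12, chr2:32961697-32961726, plus strand: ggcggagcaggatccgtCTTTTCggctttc
Rpl14, chr9:120571502-120571531, plus strand: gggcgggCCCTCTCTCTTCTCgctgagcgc
Rpl35, chr2:39005117-39005146, minus strand: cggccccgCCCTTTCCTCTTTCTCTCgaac
Rpl38, chr11:114668565-114668594, plus strand: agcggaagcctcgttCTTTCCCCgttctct
Rplp2, chr7:141447636-141447665, plus strand: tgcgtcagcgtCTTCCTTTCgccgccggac
Rpl22l1, chr3:28805493-28805522, plus strand: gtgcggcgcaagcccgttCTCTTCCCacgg
Rpl3l, chr17:24727811-24727840, plus strand: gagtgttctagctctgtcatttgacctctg
Rpl3l, the paralog of Rpl3 known from striated muscle, has no such run in the bases shown for the first of its 2 starts. The other 9 genes shown have one of 6 to 18 bases. Among members not shown, Rpl22 has no such run in the same 30 bases at either of its 2 starts. Rps27l has one of 9 bases at the first of its 2 starts and none at the other, and Rpl39l has one of 7. Both of these runs lie wholly before the annotated start, so they are not at the 5′ end of the transcript as annotated.

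CCGGAAG, the core of the motif that transcription factors of the ETS family bind, was searched on both strands over all 300 bases. It was present in 21 of 51 member promoters (41.2%) against 8.86% of all promoters. Its form on the opposite strand, CTTCCGG, begins with pyrimidines and can overlap a tract. Here 4 of these matches are shown with 10 bases on either side, the motif in capitals, for 4 of the members described below.
Rps6, chr4:86857442-86857468, minus strand: taatctacgcCCGGAAGtaacgcccct
Rps25, chr9:44407631-44407657, plus strand: acccattgccCCGGAAGtactctctcg
Rpl38, chr11:114668550-114668576, plus strand: ggttaaccgtCCGGAAGcggaagcctc
Rpl41, chr10:128549208-128549234, minus strand: agtaaggcagCCGGAAGtcgctgtctc
The E-box CACGTG, which reads alike on both strands, was found in 5 member promoters (9.80%) and in 7.15% of all promoters. TATAAA, searched on the transcript strand in the 50 bases before the start, was found in 1 (1.96%) against 2.63% of all promoters. These are matches of letters and do not show that a factor binds.

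On the fresh arrays Rhoa itself read 3526 and 4059 signal units in the controls and 4398 and 4296 in KO cells, and in culture 11249, 9879 and 9240 against 8209, 7839 and 7628. The difference did not pass the threshold in either condition (cultured log2 difference -0.35, SE 0.083, limma adjusted p = 0.156, fresh 0.20, SE 0.092, adjusted p = 0.434). How this probe set lies relative to the floxed exons cannot be told here, so it is no check of the labels. Keratinocyte markers such as Krt5 and Krt14 were bright on every array, while Krt15, a basal keratin, read 17211 to 20241 on the fresh arrays and 3.76 to 4.69 in culture. The deposited intensities lie on different scales in the conditions: fresh arrays had medians of 64.1 to 64.8 and maxima of 31541 to 32618, and cultured arrays medians of 7.75 to 8 and maxima of 111660 to 123446, with 53.9% to 54.3% of probe sets below 10. Levels are therefore compared only within a condition, and culture with fresh cells only by rank within each array. Fresh KO replicate 2 stood apart: its summed signal of 7 inner root sheath genes of the hair follicle was 31721, against 393 to 1140 on the other fresh arrays. On the same array, 5 melanocyte genes summed to 4350, 6 fibroblast genes to 1344 and 6 Langerhans cell genes to 7050. KO replicate 1 lay on the same side of both controls for these lists, but nearer to them. Its melanocyte sum was 892 against 581 and 439 in the controls, and its fibroblast sum 445 against 303 and 278. Its Langerhans cell sum was 14956 against 22702 and 17977. The root sheath signal alone was particular to replicate 2. In bulk RNA, fewer cells of a type and less RNA per cell cannot be told apart.

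Ribosomal protein transcripts were among the brightest signals of both preparations. The 105 probe sets, 0.233% of the array, carried 4.87% to 5.07% of the summed signal on the fresh arrays and 6.71% to 6.87% on the cultured arrays. They held 26 to 28 of the 100 brightest places on the fresh arrays and 29 to 32 on the cultured ones. Each gene was read by its brightest probe set (by mean log2 intensity on the 10 arrays), a choice that favours bright readings. So read, 33 to 35 of the 49 genes lay in the top 1% of every array. Of all 105 probe sets, 55 to 63 lay in the top 1% of an array and 9 to 13 below its median. Probe sets differ in how brightly they read the same amount of RNA, so the order of genes by brightness is not an order of transcript number.

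The highest mean ranks in fresh cells belonged to Rps29 (percentile 99.98), Rps4x (99.96), Rpl37a (99.95) and Rpl38 (99.94). In culture they belonged to Rps29 (99.99), Rpl35 (99.98), Rpl13a (99.98) and Rpl4 (99.98). Rps29, a small zinc-binding protein of the 40S subunit, read 28295 and 29571 in the fresh controls and 27665 and 29060.1 in fresh KO cells, and in culture 99288, 99251 and 98197 in the controls against 97491, 96909 and 99644 in KO cells. Its groups overlapped within each condition.

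At the other end were Rps16, Rpl3l and Rpl39l, which did not pass the filter (2 or more arrays of a condition with a signal over that array's median) and were not tested. Rps16 is a core protein of the small subunit, yet its only probe set with 1 symbol read 12.9 and 12.7 in fresh control cells, at percentile 1.83, and 4.03, 4.08 and 4.01 in cultured control cells. Rpl3l read 16.5 and 23.2 in fresh control and 5.73, 5.92 and 5.69 in cultured control cells. Rpl39l, the paralog of Rpl39 best known from the testis, read 33.5 and 32.7 in the fresh and 5.90, 5.98 and 5.75 in the cultured controls. All of these lie under the array medians. After them, the lowest mean rank in fresh cells was that of Rpl12 (percentile 76.6) and in culture that of Rpl38, whose signal of 8.93 to 11.3 lies at the floor.

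The spread between arrays was small for most genes. The ratio of its highest to its lowest signal within a condition had a median over the 49 genes of 1.06 on the 4 fresh and 1.07 on the 6 cultured arrays. The widest ratios were 2.09 for Rpl12 in fresh cells and 3.91 for Rpl27a in culture.

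**Figure D1:**
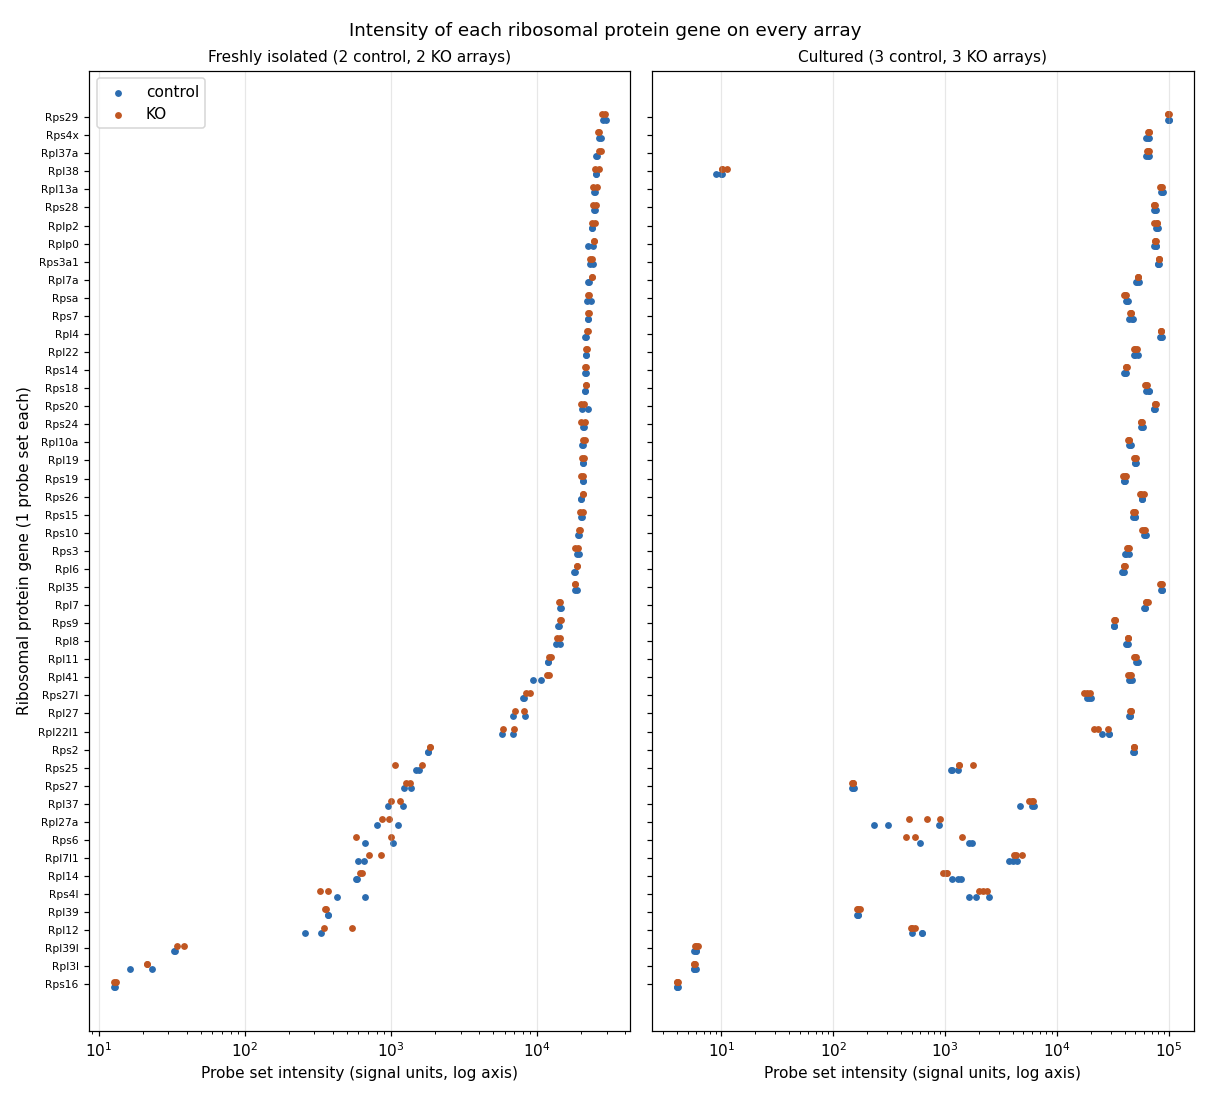
Signal of the 49 ribosomal protein genes on every array, 1 probe set per gene, with the fresh arrays on the left and the cultured arrays on the right (log axis, signal units on a scale of their own in each condition). Genes are ordered by their mean on the fresh arrays; control and KO points lie on each other for most genes, and Rpl38 reads 25035 to 26738 in fresh cells and 8.93 to 11.3 in culture.

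In cultured cells no ribosomal protein gene passed the threshold between KO and control, in either direction. The test covered 46 of the 49 genes by limma at a Benjamini-Hochberg adjusted p under 0.05 over all 22682 probe sets above the filter, of which 62 (0.273%) passed, 41 higher in KO (0.181%) and 21 lower (0.0926%). At an unadjusted p under 0.05 none of the 46 was higher in KO and 1, Rpl14, was lower, against 7.16% and 8.49% of all probe sets (15.6% in either direction). Positive and negative differences were even, 23 and 23, with a median log2 difference of 0.00026 (all probe sets -0.0068). The median size of the difference, without its sign, was 0.026 against 0.14 over all probe sets tested. For 33 of the 46 genes the 95% interval of the log2 difference lay within 0.2 of 0 on both sides. The smallest adjusted p was 0.188.

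The size of the difference varied with brightness. In the brightest 1% of probe sets, the median size of the log2 difference was 0.018 for the 34 ribosomal protein genes there and 0.045 for the 376 other probe sets. For the 12 genes tested outside the brightest 1% it was 0.14. The signal of the brightest member was 0.801 to 0.889 of the highest signal on the cultured arrays and 0.975 to 0.996 of it on the fresh ones, and the part of this nearness to the top in the small differences was not tested.

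Among large subunit genes, Rpl14 had the smallest p. It read 1150.5, 1312 and 1379 in the controls against 1039.8, 1025 and 949 in KO cells (log2 difference -0.35, SE 0.094, 95% interval -0.58 to -0.12, limma adjusted p = 0.188). Every KO array lay below every control array, and this was the only gene lower in KO without overlap by its brightest probe set. Rpl27a had the largest positive difference, with 306, 886 and 229.9 in the controls against 899, 683 and 471 in KO cells (log2 difference 0.74, SE 0.54, limma adjusted p = 0.558). Its groups overlapped, since control replicate 2 read like the KO arrays.

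Rpl12, which lies at the base of the stalk that recruits elongation factors, read 502, 626 and 620.2 in the controls against 537, 509 and 493 in KO cells (log2 difference -0.18, SE 0.12, limma adjusted p = 0.506). The proteins of the stalk itself stayed close: Rplp2 read 77614, 75994 and 79316 in the controls against 73260.0, 77614 and 78623 in KO cells (log2 difference -0.022, SE 0.039, 95% interval -0.12 to 0.075, limma adjusted p = 0.832). For Rplp0, which anchors the stalk and often serves as a reference gene, the values were 76893, 76041 and 73104 against 75354, 76033 and 75581 (log2 difference 0.0063, SE 0.032, 95% interval -0.072 to 0.085, limma adjusted p = 0.955). Both sets of groups overlapped. Rpl11, the Mdm2-binding member, read 52609, 51171 and 50193 in the controls against 48192, 50095 and 50380.2 in KO cells (log2 difference -0.051, SE 0.036, limma adjusted p = 0.549). Its KO arrays overlapped the lowest control array. Rpl38, at the floor of the cultured arrays, read 10.03, 10.1 and 8.93 against 11.3, 10.06 and 10.2 (log2 difference 0.12, SE 0.075, limma adjusted p = 0.492), and a difference at that level is not interpretable.

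Among small subunit genes, Rps6, the substrate of the S6 kinases, had the largest negative difference and the widest spread. It read 592, 1734 and 1642 in the controls against 532, 449 and 1412 in KO cells (log2 difference -0.77, SE 0.60, 95% interval -2.24 to 0.70, limma adjusted p = 0.578). Control replicate 1 read with the 2 lower KO arrays and KO replicate 3 with the 2 higher controls, so the groups overlapped. Rps25, a protein of the small subunit's head that some viral internal ribosome entry sites need, read 1139.7, 1314 and 1123 in the controls against 1779.8, 1342 and 1339.8 in KO cells (log2 difference 0.31, SE 0.14, limma adjusted p = 0.354). Its groups did not overlap. Rpsa, first described as the laminin receptor precursor, read 41366, 41673 and 43148 against 39977, 39971 and 41391 (log2 difference -0.056, SE 0.036, limma adjusted p = 0.492), with overlap.

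None of the paralogs passed. Rpl22l1 read 28808, 28839.6 and 24938 in the controls against 28477, 23328 and 21338 in KO cells (log2 difference -0.18, SE 0.12, limma adjusted p = 0.515), while its partner Rpl22 read 49604, 48392 and 52281 against 48464, 49314 and 51185 (log2 difference -0.012, SE 0.043, limma adjusted p = 0.927). Rps27l, a target gene of p53, read 19209, 18539 and 20243 in the controls against 17237, 18382 and 19709.6 in KO cells (log2 difference -0.069, SE 0.064, limma adjusted p = 0.644), and Rps27 read 146, 149 and 153 against 148, 149 and 151. Rpl7l1 had a log2 difference of 0.14 (adjusted p = 0.521) beside 0.061 for Rpl7 (adjusted p = 0.412), and Rps4l one of 0.15 (adjusted p = 0.687) beside 0.021 for the X-linked Rps4x (adjusted p = 0.795). In all, the groups of 5 genes were higher in KO without overlap (Rpl6, Rpl7, Rpl8, Rps9 and Rps25) and those of 1 lower, that is 6 of 46, against 22.3% of all probe sets.

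Of the 96 member probe sets that could be tested, none passed either. The smallest p belonged to a second probe set of Rps3, a protein at the messenger RNA entry of the 40S subunit (1455600_at), which read 1087, 1048 and 987 in the controls against 1485, 1419.8 and 1347 in KO cells (log2 difference 0.45, SE 0.076, limma adjusted p = 0.101). The KO arrays all lay above the controls there. The brightest probe set of Rps3 read 40698, 43609 and 41616 against 42531, 42036 and 43583 (log2 difference 0.026, SE 0.04, limma adjusted p = 0.796), with overlap, so the 2 probe sets differ. A dim probe set of Rps24 (1455195_at) was lower in all KO arrays, 299, 291 and 370.5 against 212, 235 and 241 (log2 difference -0.48, SE 0.13, limma adjusted p = 0.195), while the brightest one of that gene differed by -0.016.

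**Figure D2:**
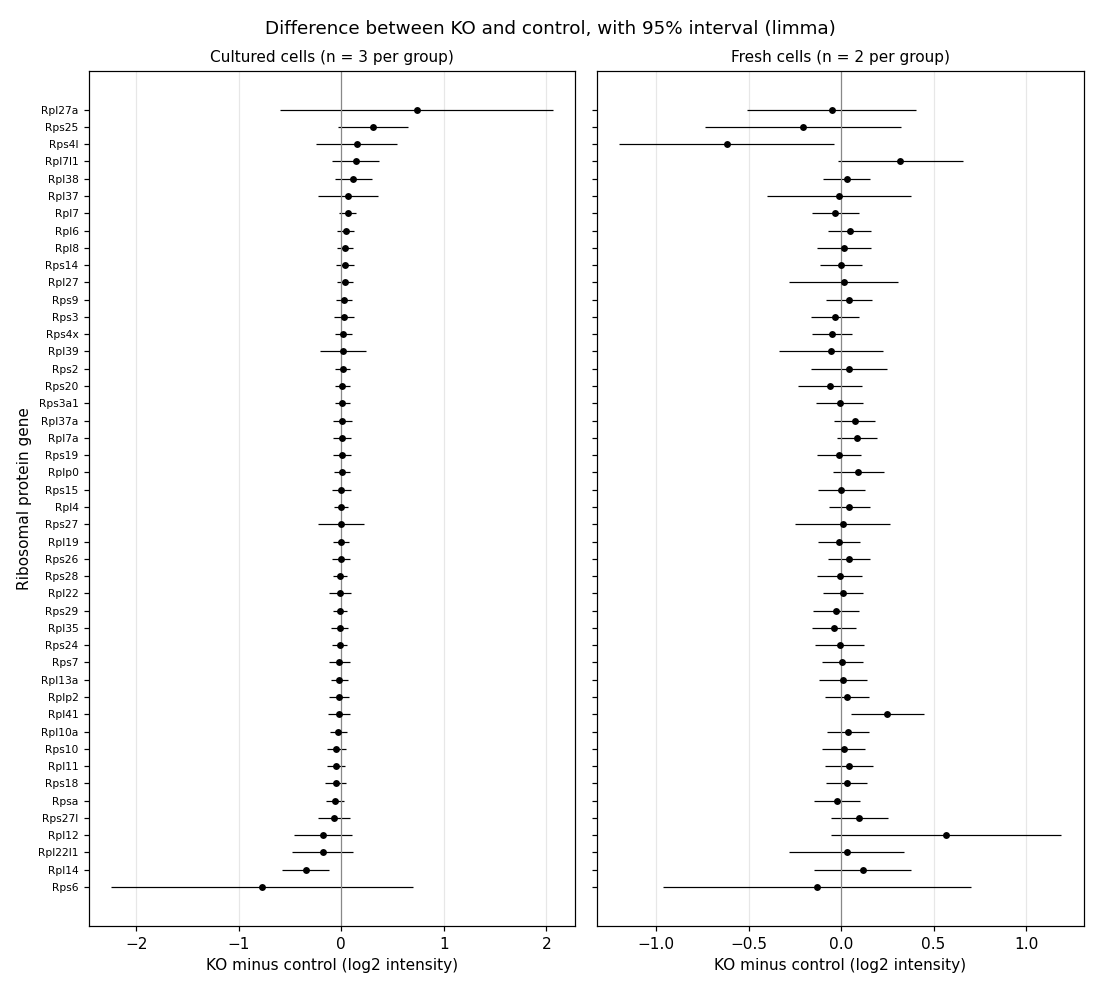
Log2 difference between KO and control for the 46 ribosomal protein genes tested, in culture (left, 3 arrays per group) and in fresh cells (right, 2 arrays per group), with horizontal axes of different width. Points are limma estimates and bars their 95% intervals; most intervals hug 0, and the widest are those of Rps6 and Rpl27a in culture and of Rps6 and Rpl12 in fresh cells.

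In fresh cells, too, no ribosomal protein gene passed the threshold. Here 46 genes were tested and none was called, but neither was any of the 22893 probe sets (0%), so this count is that of the background. At an unadjusted p under 0.05, 1 gene was higher and 1 lower in KO, against 6.01% and 6.89% of all probe sets (12.9% in either direction). The median log2 difference was 0.010 (all probe sets -0.00034), with 27 genes above 0 and 19 below, and the median size was 0.035 against 0.15 over all probe sets. For 29 genes the 95% interval lay within 0.2 of 0 on both sides. In the brightest 1% of probe sets the median size was 0.031 for the 34 ribosomal protein genes and 0.074 for the other 380.

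Of the large subunit genes tested, 18 of 24 were higher in fresh KO cells (median 0.031), and of the small subunit genes 9 of 22 (median -0.0070). Over all probe sets this share was 49.9%. Rpl41, the shortest ribosomal protein, read 10657 and 9339 in the controls against 11732 and 11996 in KO cells (log2 difference 0.25, SE 0.079, limma adjusted p = 0.329). Both KO arrays lay above both controls. Rpl12 had the largest positive difference, 332 and 258 in the controls against 349 and 538 in KO cells (log2 difference 0.57, SE 0.25, 95% interval -0.054 to 1.19, limma adjusted p = 0.416). KO replicate 2, the fresh array with hair follicle signal and the highest melanocyte sum, was the highest. Without it the difference was 0.26, and without KO replicate 1 it was 0.88.

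Rps4l had the largest negative difference, 426 and 664 in the controls against 369 and 325 in KO cells (log2 difference -0.62, SE 0.23, 95% interval -1.20 to -0.037, limma adjusted p = 0.365). The groups did not overlap, and without KO replicate 2 the difference was -0.53, and without control replicate 2 it was -0.30. Rps25 read 1561 and 1485 in the controls against 1638 and 1063 in KO cells (log2 difference -0.21, SE 0.21, limma adjusted p = 0.708), and its sign turned without KO replicate 2 (0.11). Rps6 read 1041 and 666 in the controls against 1007 and 575 in KO cells (log2 difference -0.13, SE 0.33, limma adjusted p = 0.891), each group spanning nearly the same range. Its sign turned as well without that array (0.27).

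Further members did not pass either. Rpl7l1 read 656 and 597 in the controls against 713 and 856 in KO cells (log2 difference 0.32, SE 0.13, limma adjusted p = 0.404), Rpl14 573 and 582 against 618 and 633 (log2 difference 0.12, SE 0.10, limma adjusted p = 0.669), and Rps27l 8163 and 7993 against 8414 and 8897 (log2 difference 0.10, SE 0.062, limma adjusted p = 0.543), each higher on both KO arrays. Rps20 (log2 difference -0.059) and Rpl39 (-0.055), which lines the exit tunnel of the large subunit, completed the 5 lowest. Rplp0 read 22231 and 24027 in the controls against 24684 and 24621 in KO cells (log2 difference 0.093, SE 0.054, limma adjusted p = 0.52), Rplp2 23589.9 and 23934 against 23725 and 24899.5 (log2 difference 0.033, SE 0.048, limma adjusted p = 0.801), Rpl11 11875 and 11908 against 12103 and 12399 (log2 difference 0.043, SE 0.052, limma adjusted p = 0.754) and Rpsa 22123 and 23328 against 22168 and 22506 (log2 difference -0.024, SE 0.049, limma adjusted p = 0.861). In all, 16 genes were higher and 5 lower in KO without overlap, 21 of 46, against 46.9% of all probe sets. With KO replicate 2 left out, 22 of 46 genes were above 0 and the median was -0.0052, and again none passed.

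Whether the difference between KO and control itself differed between culture and fresh cells was tested for 46 genes, and none passed, against 165 of 18773 probe sets (0.879%, of which 0.362% higher and 0.517% lower, each as a share of all probe sets). At an unadjusted p under 0.05, 1 gene was higher in this difference and 3 lower, against 7.3% and 10.5% of all probe sets (17.8% in either direction). The lowest values, culture minus fresh, were -0.75 (SE 0.27, 95% interval -1.38 to -0.11, adjusted p = 0.22) for Rpl12, -0.64 (SE 0.68, 95% interval -2.18 to 0.90, adjusted p = 0.652) for Rps6 and -0.46 (SE 0.14, 95% interval -0.77 to -0.16, adjusted p = 0.134) for Rpl14. Rpl41 followed with -0.28 (SE 0.09, 95% interval -0.48 to -0.07, adjusted p = 0.171), and Rpl22l1 with -0.21 (adjusted p = 0.545). The highest were 0.79 (SE 0.57, 95% interval -0.55 to 2.13, adjusted p = 0.507) for Rpl27a, 0.77 (SE 0.28, 95% interval 0.14 to 1.40, adjusted p = 0.2) for Rps4l and 0.52 (SE 0.25, 95% interval -0.051 to 1.08, adjusted p = 0.32) for Rps25, then Rpl7 at 0.092 and Rpl38, at the floor in culture, at 0.088. Without fresh KO replicate 1, which leaves 1 KO array in fresh cells, Rps25 (0.83) and Rpl12 (-1.06) each passed with a limma adjusted p of 0.0226, as did 1302 of all 18578 probe sets then tested at the same threshold. The lone fresh KO array is there assumed to vary like the other groups. It is the fresh array with hair follicle signal and the highest melanocyte sum.

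Ranked within each array, 20 ribosomal protein genes stood higher in culture than in fresh cells and 20 lower (46.2% and 43.7% of all probe sets), by limma on normal scores of the ranks with both genotypes averaged. That is 87% of the 46 genes tested, against 89.9% of all 26841 probe sets, a share near the background. At an unadjusted p under 0.05 the counts were the same, 20 and 20, against 90.2% of all probe sets. With percentile ranks in place of normal scores, 12 genes were higher and 16 lower. The median difference of the normal score was 0.0036 (all probe sets 0.016). Of the large subunit genes 12 were higher and 9 lower (median 0.088), and of the small subunit genes 8 higher and 11 lower (median -0.13). Condition and the separate processing of the conditions cannot be told apart here.

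Rpl38, a small protein of the large subunit known from skeletal patterning, was bright in fresh cells and at the floor in culture. It read 25398 and 25286 in the fresh controls and 25035 and 26738 in fresh KO cells, and in culture 10.03, 10.1 and 8.93 in the controls against 11.3, 10.06 and 10.2 in KO cells. It was called lower in culture, but since 53.9% to 54.3% of probe sets read below 10 there, its rank in culture has no exact value and the size of the fall is not given. It has 1 member probe set, an _x_at set, and no second one to compare. Rps27, the partner of Rps27l, read 1378 and 1231 in the fresh controls and 1278 and 1341 in fresh KO cells, and in culture 146, 149 and 153 in the controls against 148, 149 and 151 in KO cells (score difference -0.90, SE 0.016, limma adjusted p = 7.89e-11), from percentile 91.8 to 69.0. The next lowest were Rpl27a (-0.40), Rpsa (-0.38) and Rps25 (-0.32), with limma adjusted p of 0.00133, 1.14e-07 and 9.94e-05. Of the 2 Rpsa probe sets, 1 was called higher and 1 lower in culture.

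Rps2, at the messenger RNA entry of the 40S subunit, rose furthest, as read by its only member probe set, an _x_at set. It read 1783 and 1807 in the fresh controls and 1842 and 1859.8 in fresh KO cells, and in culture 48455, 47981 and 48354 in the controls against 48276, 48705 and 49049 in KO cells (score difference 1.12, SE 0.012, adjusted p = 2.57e-12), from percentile 94.2 to 99.7. Rpl35, near the exit of the tunnel, moved from 99.7 to 99.98 (0.75, SE 0.025, adjusted p = 4.65e-09). Rpl4, which lines the tunnel (0.59), Rpl7l1 (0.51) and Rps4l (0.47) followed, with adjusted p of 2.83e-08, 9.33e-08 and 1.01e-05. The paralogs and their partners went opposite ways for Rps4l against Rps4x (-0.28, limma adjusted p = 5.95e-07). By its brightest probe set Rps27l fell (-0.21, limma adjusted p = 1.92e-06) as Rps27 did. Of the 3 Rps27l probe sets, 1 was called higher and 2 lower in culture. Rpl22 fell (-0.20, adjusted p = 3.96e-06) and Rpl22l1 did not pass (0.077, adjusted p = 0.0616), and the difference within these pairs was not tested. Rplp0 (0.22), Rplp2 (0.23) and Rpl11 (0.17) rose, with adjusted p of 0.000271, 0.00033 and 9.52e-06. Rps6 (-0.13, adjusted p = 0.296) and Rpl12 (0.089, adjusted p = 0.065) did not pass.

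Probe sets of the same gene gave different answers. Of the 24 genes with several probe sets, 14 had some called higher and some called lower in culture, and 8 with at least 2 tested had calls in 1 direction only. The following cases were picked after their values were seen. Rpl22 was higher in culture by 1416603_at (score difference 0.80, limma adjusted p = 4.31e-10) and lower by 1448398_s_at (-0.90, adjusted p = 3.66e-10). Rps29 was higher by its probe set of highest mean over all arrays (0.31, adjusted p = 3.95e-05) and lower by 1415833_x_at (-1.17, adjusted p = 1.72e-11). Rpl41 was higher by 1455578_x_at (1.18) and lower by 1454639_x_at (-0.65). In Rps10, 5 of 6 probe sets were higher and 1 lower, and they differed in size. Its probe set 1439374_x_at read 600.1 and 614 in fresh control and 41461, 39304 and 40552 in cultured control cells (score difference 1.60, adjusted p = 1.26e-12), moving from percentile 83.6 to 99.5. The brightest of its 6 probe sets read 19182 and 19498 in the fresh and 62313, 59772 and 61104 in the cultured controls (0.12, adjusted p = 0.000309). Rpl35 was alike in all 5 of its tested probe sets, each higher in culture, and so were all 3 of Rpl27, Rpl7 and Rpl7l1.

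The name of an Affymetrix probe set tells how specific it is: _x_at marks probes that may bind unrelated transcripts, and _a_at and _s_at mark sets that match several transcripts of a gene or family. Ribosomal protein genes have many near-identical processed pseudogenes, and 40 of the 105 member probe sets are _x_at and 31 _a_at or _s_at. Median percentiles in fresh cells and in culture were 99.46 and 99.72 for _x_at, 99.74 and 99.68 for _a_at, and 76.6 and 72.5 for the 34 plain _at sets, 8 of which lay under the array median in both conditions. Within a gene, the brightest probe set read a median of 25.5 times the dimmest in fresh cells and 114 times in culture. Without _x_at sets the median rank difference was -0.13.

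Genes that work with the ribosome were counted in the same way, with lists chosen when results of these data were already known. Fau, which encodes a small subunit protein fused to a ubiquitin-like one, read 30194, 28656 and 28570 in cultured control and 26452, 28413 and 29035 in cultured KO cells (log2 difference -0.060, SE 0.050, limma adjusted p = 0.607). In fresh cells its difference was -0.023 (adjusted p = 0.854). Translation factors and other genes known for TOP messenger RNAs gave no call among 22 measured in either condition, with medians of 0.018 in culture and 0.014 in fresh cells, close to those of the ribosomal proteins. The smallest p among them in culture were those of Vim (1.43, adjusted p = 0.223), which encodes the intermediate filament protein vimentin, and of the initiation factor subunits Eif3m (0.23, limma adjusted p = 0.23), Eif3e and Eif3l. Of 26 genes of initiation control and mTORC1 signalling none passed in either condition (medians 0.0064 and 0.073); Eif4ebp2, a repressor of the cap-binding protein, stood at -0.44 (adjusted p = 0.223) and Ddit4, an inhibitor of mTORC1, at 1.40 (adjusted p = 0.324) in culture.

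Genes that build the ribosome were mostly above 0 in fresh KO cells, though none of them passed the threshold. Of 43 assembly factors of the 60S subunit, 38 were higher in fresh KO cells, with a median of 0.17. Over all probe sets, 49.9% were above 0 in fresh cells. For the 40S subunit it was 41 of 50 (median 0.14) and for snoRNP and nucleolar proteins 19 of 23 (median 0.23). Examples are Eif6, which keeps the subunits apart (3643 ± 146 in control and 4457 ± 210.3 in KO, SD, n = 2, log2 difference 0.29, limma adjusted p = 0.303), and Pno1, a late 40S factor (854 ± 147 and 1219 ± 87.3, log2 difference 0.52, adjusted p = 0.316). Without KO replicate 2 these medians were 0.075, 0.081 and 0.086, with 25 of 43, 37 of 50 and 20 of 23 above 0, and without KO replicate 1 they were 0.29, 0.22 and 0.28, with 1 gene each of the 60S and snoRNP lists past the threshold, as were 945 of all 22499 probe sets (4.2%). In culture the medians were 0.043, 0.032 and 0.029, and without cultured KO replicate 1 they were -0.0097, -0.024 and -0.014.

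Mitochondrial ribosomal proteins, which form a separate ribosome inside mitochondria, were higher in fresh KO cells for 73 of 76 genes, with a median of 0.22. Of all probe sets, 49.9% were higher there. At an unadjusted p under 0.05, 23 of them were higher and none lower. Over all probe sets these shares were 6.01% and 6.89% (12.9% in either direction), and none of the 76 passed the adjusted threshold. The groups of 64 were higher without overlap, against 23.5% of all probe sets in that direction. Mrps17 read 1616 ± 54.4 in control and 2048 ± 60.4 in KO cells (SD, n = 2, log2 difference 0.34, SE 0.086, limma adjusted p = 0.296). Without KO replicate 2 the count was 72 of 76 and the median 0.21. In culture 39 of the 76 were above 0 (median 0.0073), and without control replicate 1 it was 26 (median -0.054).

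The cell cycle genes had differences of opposite sign in the conditions. Of all probe sets, 47.2% were above 0 in culture and 49.9% in fresh cells. Of 45 cell cycle genes 42 were lower in cultured KO cells (median -0.28) and all 44 measured were higher in fresh KO cells (median 0.61), none past the threshold, although 9 passed without fresh KO replicate 1 (4.2% of all probe sets did). Their difference between conditions had a median of -0.84, and 12 of 44 passed (27.3%), all lower, against 0.517% of all probe sets lower. For the ribosomal protein genes the values were -0.011 and 0 of 46. Of 26 p53 target genes 21 were higher in cultured KO cells (median 0.38), 10 of them at an unadjusted p under 0.05 (7.16% of all probe sets), with none past the threshold. Mdm2 read 1224 ± 88.8 in control and 1807 ± 256 in KO cells (SD, n = 3, log2 difference 0.55, limma adjusted p = 0.153), beside the values of Rps27l and Rpl11 given above. In cultured KO cells the summed signal of 6 suprabasal keratinocyte genes was 4499 to 6870 against 1430.1 to 1717 in the controls, and its part in these values was not tested. Fresh KO replicates 1 and 2 both had list medians above those of the controls for the cell cycle and mitochondrial lists. The same held for the 60S assembly, 40S assembly, snoRNP and nucleolar, and TOP translation factor lists. For the ribosomal protein genes, the median deviation of fresh KO replicate 1 (-0.015) lay below that of control replicate 2 (0.00045).

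By rank, 51.3% of all probe sets were above 0, that is higher in culture (median 0.016). The counts above 0 in the lists were 41 of 43 for 60S assembly (median score difference 0.52), 45 of 51 for 40S assembly (0.45), 21 of 23 for snoRNP and nucleolar proteins (0.44) and 66 of 76 for mitochondrial ribosomal proteins (0.25). For the ribosomal proteins it was 23 of 46 (0.0036), for TOP translation factors 10 of 22 (-0.080) and for initiation control and mTORC1 signalling 11 of 26 (-0.018). Fau was lower in culture (-0.47).

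**Figure D3:**
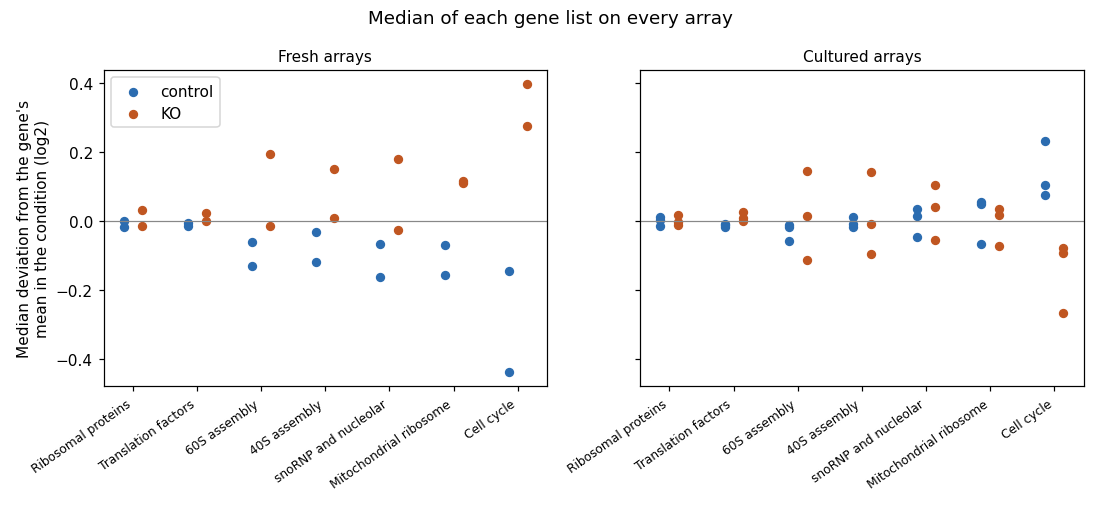
Median over each gene list of the deviation of a gene's log2 signal from its mean in the condition, 1 point per array, for fresh (left) and cultured (right) arrays. The ribosomal protein medians stay between -0.018 and 0.033 on all 10 arrays, and the cell cycle medians run from -0.44 to 0.40 in fresh cells.

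The 110 probe sets that carry a ribosomal protein symbol together with others were not members, and were tested in the same way. Of these, 104 were tested in culture and 105 in fresh cells, and none passed between KO and control, with medians of 0.0061 and 0.017. By rank, 88.8% of the 107 tested passed between culture and fresh cells, 50 higher and 45 lower.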

How the data were processed

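RNA from 10 samples was labelled with the 3′ IVT Express kit and hybridised to 1 array each, per the labels' protocols. The authors deposited linear intensities, 1 per probe set. MAS5 is named in the submitters' processing notes, without a version or settings. The conditions lie on different scales, and intensities were compared inside each condition alone. Log2 intensities were fitted with limma 3.58.1 (lmFit, eBayes with trend) in R 4.3.3 over all probe sets whose signal exceeded the array median on 2 or more of that condition's arrays, and p-values were adjusted by Benjamini-Hochberg at 0.05. Culture and fresh cells were compared by the normal score of each probe set's rank on its array. The fits were tested on simulated data. Each gene was read by its probe set of highest mean log2 intensity. Genes named are, in each comparison, the 5 highest and 5 lowest members, the 4 highest and 4 lowest by rank, paralogs with their partners, Rplp0, Rplp2, Rpsa, Rps6 and Rpl11, and for other lists up to 4 genes of smallest p. The platform annotation gave 34945 probe sets 1 symbol, 932 several and 9160 none. Members and lists were chosen with earlier results of these data known. The number of arrays limits the precision. Alternatives were other centrings, filters, probe set rules, a replicate block and leaving out each array.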

Additional observations from a re-analysis of the deposited data

How the results depend on the processing

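No ribosomal protein gene passed between KO and control in either condition under any alternative run. The median log2 difference in culture was 0.020 with centring on the 75th percentile, and ran from -0.011 to 0.014 with 1 array left out. In fresh cells it ran from -0.0052 to 0.038, the latter without fresh KO replicate 1. For the difference of the KO effects, leaving out 1 array gave 0 to 1 gene higher and 0 to 1 lower, both without fresh KO replicate 1 (Rps25 0.83 and Rpl12 -1.06). By rank, 12 genes were higher and 16 lower in culture with percentile ranks in place of normal scores. The median rank difference was -0.016 on KO arrays only, 0.077 with no filter, 0.036 when all probe sets of a gene were averaged, -0.13 without _x_at probe sets and 0.013 over probe sets at 100 or above on every array, an alternative chosen after seeing the data. Rpsa turned to 0.0065 (limma adjusted p = 0.599) when its probe sets were averaged. The cause of these changes was not tested. After centring on the group mean, same-numbered samples correlated at 0.32, 0.081 and 0.25 in culture. In fresh cells the value was -0.055 for both numbers, which 2 arrays per group make identical. These values do not decide whether same-numbered samples were paired. With the replicate block the KO comparisons and their difference again gave 0 calls, with medians of 0.00026 in culture and 0.010 in fresh cells, and by rank 21 genes were higher and 20 lower (median -0.0012). Signals near the floor of the cultured arrays, such as that of Rpl38, carry no order.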
